A study of Saccharomyces cerevisiae with 2 samples.

Results

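The stretches described here are the widest continuous pieces of the budding yeast genome in which DNA was open to both of the methyltransferases used, CCMT and GCMT. The 16 nuclear chromosomes were cut into 50-bp tiles from their first base, a tile was usable when the reads over its target cytosines summed to 10 or more with each enzyme, and its level was the number of methylated reads over all reads. Stretches were selected on these levels, as runs of at least 5 adjacent usable tiles with 20% or more in both libraries. This gave 309 stretches among 5384 runs of open tiles of any length. Of 186474 usable tiles, 10129 (5.43%) reached 20% in both libraries, and 2087 of these lay in the 309 stretches. Because the levels chose the members, the levels inside them are a description and were not tested.

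NOMe-Seq marks accessible DNA by adding a methyltransferase to nuclei and reading the methylated cytosines after bisulfite conversion. Cells of the *S. cerevisiae* strain S288C, grown in YPD at 30°C and turned into spheroplasts with Zymolyase, were fixed with 1% formaldehyde and permeabilized with 0.1% NP-40 as the GEO labels give them (the volumes in the methods amount to other concentrations), and the nuclei were incubated at 37°C for 1 h with either CCMT or GCMT. The target of CCMT, a mutant of M.CviQIX that lacks its N-terminal part, is the first C of CC, and that of GCMT, the enzyme M.CviPI, is the C of GC. Yeast has no cytosine methylation of its own, there was 1 library per enzyme, and no untreated nuclei were analysed here, so no value has a replicate error and intervals (95%, exact binomial) cover counting error only. Read numbers are sums over target cytosines, so a read that spans several of them is counted at each. The intervals treat these counts as independent and can therefore be too narrow.

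In chromatin, DNA wound around nucleosomes is largely shielded from such enzymes, whereas linkers and nucleosome-depleted regions are open. Yeast promoters typically carry a short nucleosome-depleted region just before the first nucleosome of the gene, kept open by general regulatory factors such as Abf1, Reb1 and Rap1, by stiff runs of adenine, and by remodelling enzymes. Genes that respond to nutrients or stress often have longer regulatory regions, with sites for several factors, some of which recruit the Tup1-Cyc8 corepressor.

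The following sequences, read from the R64 reference, which has the same chromosome names and positions as sacCer3, show what such stretches look like. All are written 5′ to 3′ on the top strand, and they were picked after the values had been seen. The piece labelled MMO1 is the middle 300 bp (chrXI:355526-355825) of the widest stretch, and its capitals mark the only match there to AGGGG, the core of the stress response element. The piece labelled HXT3 is the middle 300 bp (chrIV:1164926-1165225) of the stretch with one of the highest levels, and capitals mark 7 matches to CGGANNA, the core bound by the glucose-regulated repressor Rgt1, and 1 to AGGGG. The piece labelled RPS11B is a whole 250-bp stretch (chrII:332501-332750) before a ribosomal protein gene, with a pair of matches to the Rap1 core ACCCANACA in capitals. The piece labelled ADE3 is a whole 300-bp stretch (chrVII:905551-905850) with 2 matches to the Abf1 consensus in capitals. It begins in the end of the coding sequence of the neighbouring gene *YCH1*, where both matches lie, and 55.7% of it is outside coding sequences. The piece labelled SHR5 is 300 bp (chrXV:109401-109700) from the middle of a stretch inside a coding sequence. Its capitals mark overlapping Abf1 matches, 1 on each strand, and a match to TTACCCG, the Reb1 core, on the bottom strand. The piece labelled TGL2 is a whole 250-bp stretch (chrIV:568801-569050) with the genes for an arginine and an aspartate tRNA in capitals.
MMO1: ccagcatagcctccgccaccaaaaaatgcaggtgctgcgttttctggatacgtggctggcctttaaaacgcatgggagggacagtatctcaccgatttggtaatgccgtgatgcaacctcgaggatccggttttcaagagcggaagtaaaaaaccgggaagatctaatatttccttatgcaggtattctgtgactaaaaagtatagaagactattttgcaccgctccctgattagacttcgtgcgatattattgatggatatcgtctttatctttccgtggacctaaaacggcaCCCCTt
HXT3: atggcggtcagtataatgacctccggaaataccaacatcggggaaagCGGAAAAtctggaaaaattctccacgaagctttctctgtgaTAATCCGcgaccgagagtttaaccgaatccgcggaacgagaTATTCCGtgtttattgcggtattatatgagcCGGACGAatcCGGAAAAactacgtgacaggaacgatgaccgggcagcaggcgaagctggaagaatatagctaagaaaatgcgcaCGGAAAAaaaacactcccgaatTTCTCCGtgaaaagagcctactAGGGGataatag
RPS11B: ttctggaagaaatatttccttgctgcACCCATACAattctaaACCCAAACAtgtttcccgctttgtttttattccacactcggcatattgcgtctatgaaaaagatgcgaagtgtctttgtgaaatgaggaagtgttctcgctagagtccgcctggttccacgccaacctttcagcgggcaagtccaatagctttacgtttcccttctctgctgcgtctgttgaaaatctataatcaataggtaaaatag
ADE3: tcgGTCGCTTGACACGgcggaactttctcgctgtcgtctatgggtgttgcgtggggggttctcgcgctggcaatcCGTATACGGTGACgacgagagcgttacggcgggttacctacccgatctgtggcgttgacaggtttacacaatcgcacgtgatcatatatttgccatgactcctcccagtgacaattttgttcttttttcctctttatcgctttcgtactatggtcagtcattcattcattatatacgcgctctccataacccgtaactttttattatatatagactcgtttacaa
SHR5: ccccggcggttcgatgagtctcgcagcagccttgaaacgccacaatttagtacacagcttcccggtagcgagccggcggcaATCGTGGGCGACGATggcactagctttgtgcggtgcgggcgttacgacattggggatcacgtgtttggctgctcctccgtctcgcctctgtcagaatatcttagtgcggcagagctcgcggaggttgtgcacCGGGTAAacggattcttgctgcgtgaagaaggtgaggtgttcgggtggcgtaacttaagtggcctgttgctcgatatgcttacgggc
TGL2: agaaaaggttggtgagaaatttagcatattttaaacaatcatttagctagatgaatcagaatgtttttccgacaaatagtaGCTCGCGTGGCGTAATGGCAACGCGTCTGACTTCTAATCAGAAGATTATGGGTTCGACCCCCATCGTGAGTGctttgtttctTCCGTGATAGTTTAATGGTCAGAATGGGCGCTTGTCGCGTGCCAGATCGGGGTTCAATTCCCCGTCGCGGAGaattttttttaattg

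The stretches covered 104350 bp, 0.864% of the nuclear genome, and were between 250 and 950 bp wide, with a median of 300 bp and quartiles of 250 and 350 bp. Most were near the lower limit, since 118 were 250 bp and 77 were 300 bp wide. Only 30 reached 500 bp and 18 reached 600 bp. Just below the limit, 246 runs consisted of 4 tiles, just outside the selection. In 156 stretches, the lowest of all tile levels was under 22%. Every chromosome held at least 2 stretches, and their density was between 0.869 per 100 kb on chromosome I and 3.90 per 100 kb on chromosome XVI. Of the 309, 1 lay within 20 kb of a chromosome end.

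The pooled level of single stretches with CCMT was between 22.7% and 44.0%, with a median of 31.5%, and with GCMT it was between 26.6% and 46.4%, with a median of 35.5%. Over all stretches together, 31.9% of the CCMT reads and 35.8% of the GCMT reads were methylated, against 9.53% and 10.4% over all nuclear cytosines, a ratio of 3.34 and 3.44. The level with GCMT was above that with CCMT in 243 stretches and below it in 66, with a median difference of 3.70 percentage points. The intervals of the libraries did not overlap in 85 stretches with GCMT above and in 4 with CCMT above, counts that can be too high where the intervals are too narrow. Across the 309 stretches, CCMT and GCMT levels were weakly related (Pearson's r, 0.146; Spearman's rho, 0.148), over points that share their DNA and were all cut at 20% in both libraries, so this is a description only. Between width and level, rho was 0.209 with CCMT and 0.00867 with GCMT.

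**Figure D1:**
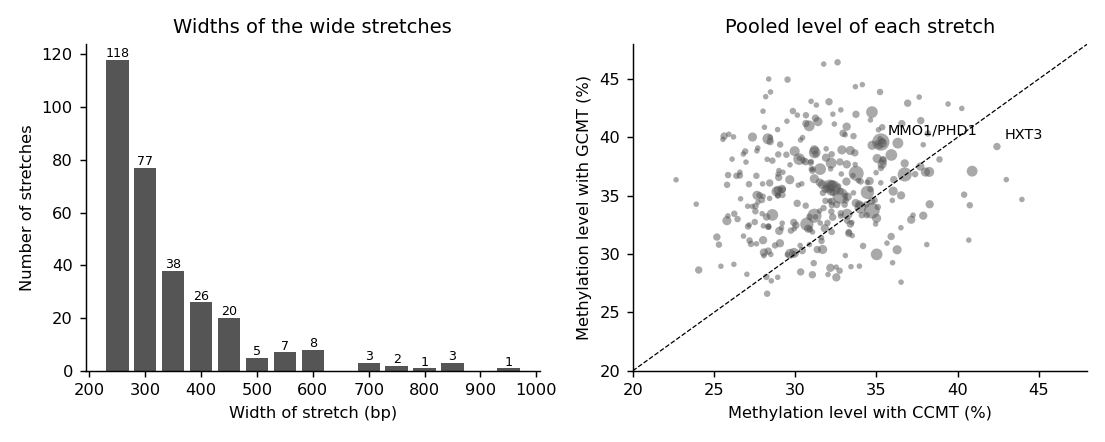
The left panel counts the 309 stretches by width in bp, and the right panel plots the pooled methylation level of each stretch with CCMT (x axis, %) against that with GCMT (y axis, %), with larger points for wider stretches and a dashed line of equal levels. Of the stretches, 118 were 250 bp wide and 1 was 950 bp wide, and 243 lie above the dashed line.

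Inside the stretches, the outermost tiles were lower than the inner ones. In the 195 stretches of 250 or 300 bp, the edge tiles had 29.8% and the inner tiles 31.9% with CCMT, and 33.9% and 36.98% with GCMT. Stretches of 500 bp or more had 30.6% at the edge and 33.3% inside with CCMT, and 33.9% and 36.7% with GCMT, a difference of the same direction.

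The counts that had selected the stretches were also split by strand and by cytosine, as a description only. Both strands were at 20% or more with both enzymes in 308 stretches, the exception being a 250-bp stretch before the cyclin gene *CLB2*, where the top strand had 17.9% and the bottom strand 38.0% with GCMT. The stretches held 11904 CC cytosines with a mean coverage of 30.6 reads and 12826 GC cytosines with 15.4 reads, compared with 31.6 and 13.1 reads over all listed nuclear cytosines. Of these cytosines, 16.6% had a level under 20% with CCMT and 21.1% with GCMT, and 8.35% and 25.6% reached 50%. The level also differed between trinucleotide contexts. With CCMT, the level was 36.8% at CCC (the middle C is the target) and 24.5% at GCC, and with GCMT it was 44.0% at GCT and 27.6% at GCA. Cytosines of GCC, which both enzymes can methylate, had 24.5% with CCMT and 35.4% with GCMT. All 8 contexts were between 3.72 and 5.28 times the level of the same context in coding sequences outside the stretches.

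A stretch ended at a tile that was under 20% in a library or had too few reads. Of the 618 tiles next to a stretch, 213 (34.5%) were not usable, 162 were under 20% with CCMT alone, 109 with GCMT alone and 134 with both. A width that ends at a tile that was not usable is a lower limit. Of the 405 usable edge tiles 181 had at least 15% in the library with the lower level. In 9 pairs, the neighbouring stretches were separated by a single tile. The pair before *MGA1*, for example, would join to 1000 bp, and the tile between them had 15.9% with CCMT and 40.8% with GCMT. The 3 stretches before *CUP9*, which encodes a transcriptional repressor of peptide uptake, lay in a row on chromosome XVI from 214301 to 215300, and the tiles between them had 19.9% and 13.8% with CCMT and 24.1% and 33.8% with GCMT. When the libraries were taken alone, 446 such runs were found with CCMT, of which 74.9% overlapped a run of GCMT, and 539 with GCMT, of which 62.0% overlapped a run of CCMT. The widest run was 1100 bp in each, before *MMO1* with CCMT and before *CUP9* with GCMT.

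Outside the stretches, the level was lower with distance in both libraries. In spaces between genes that lie on the same strand, the side toward the start codon had 18.6% with CCMT and 23.2% with GCMT from 50 to 100 bp beyond the edge, 13.9% and 16.02% from 200 to 250 bp, and 10.2% and 11.2% from 400 to 600 bp. The side away from the start codon had 20.8% and 21.96%, 14.96% and 15.8%, and 10.99% and 12.7% at the same distances. In divergent spaces, the corresponding levels were 19.2% and 19.9%, 13.01% and 16.3%, and 10.9% and 12.9%. The first 50 bp are tied to the selection, because that tile had to fail in at least 1 library or be unusable, and are not given. Farther inside the genes, from 100 to 500 bp after the start codon, genes with a stretch in the 300 bp before the start codon had a median level of 8.71% with CCMT (quartiles, 7.54% and 10.3%; 262 genes) and 9.11% with GCMT (7.33% and 11.5%). The other genes had 7.96% (6.77% and 9.36%; 5631 genes) and 7.82% (6.29% and 9.65%), so the quartiles overlapped. Pooled over all reads, the gap was larger, with 10.5% against 8.40% with CCMT and 12.5% against 8.76% with GCMT. Both pooled levels of the genes with a stretch lay above the upper quartile of these genes. A start codon lay inside 21 stretches, so tiles selected for their level can fall in this part of a gene. The gap is therefore a description only.

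**Figure D2:**
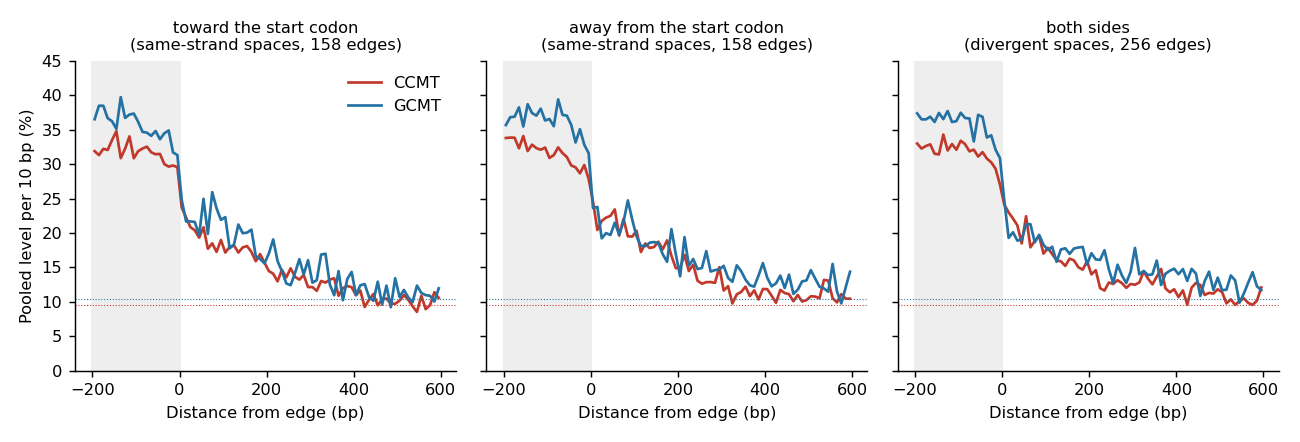
Pooled methylation level in 10-bp bins (y axis, %) against the distance from the edge of the stretches (x axis, bp; the stretch lies in the grey part), for both edges of stretches in same-strand spaces and for all edges in divergent spaces, with dotted lines at the nuclear levels of 9.53% and 10.4%. From 400 to 600 bp the levels toward the start codon are 10.2% and 11.2%, and those in divergent spaces 10.9% and 12.9%.

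The stretches lay mainly between genes, in wide spaces. The coding sequences of the 5422 characterized genes leave 5340 spaces, which were called divergent when they lie upstream of the genes on both sides, same-strand when they lie upstream of 1 gene, and convergent when they follow both genes. By the centre of the stretch, 128 (41.4%) were in divergent, 158 (51.1%) in same-strand and 9 (2.91%) in convergent spaces, and 14 (4.53%) were inside the coding span of a gene. Of all spaces, 26.2% are divergent, 47.9% same-strand and 25.9% convergent. Divergent spaces are also wider, with a median of 570 bp against 429 bp for same-strand and 238 bp for convergent spaces, and the spaces that held a stretch had to be wide enough for it. The share of spaces with a stretch was 0.0770% up to 250 bp, 3.65% from 400 to 600 bp and 17.8% from 1000 to 1500 bp, and 14.8% over 2000 bp. Among the spaces wider than 1000 bp, 68 of 312 divergent (21.8%), 66 of 435 same-strand (15.2%) and 8 of 115 convergent spaces (6.96%) held a stretch. Within narrower classes of width, the order of divergent and same-strand spaces changed. From 400 to 600 bp their shares were 5.28% and 3.72%, and from 600 to 800 bp 11.5% and 12.9%. From 800 to 1000 bp they were 9.84% and 16.1%, and from 1000 to 1500 bp 19.2% and 20.1%. From 1500 to 2000 bp they were 31.2% and 10%, and over 2000 bp 18.1% and 13.3%. The median stretch covered 31.5% of its space, with quartiles of 18.0% and 44.7%.

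Wider runs lay in wider spaces. The space around the centre had a median width of 664 bp for runs of 1 tile, 926.5 bp for runs of 4, 940 bp for 5 or 6, and 1309 bp for 10 or more. The share in divergent spaces was 38.3% for runs of 1 tile and 42.9% for runs of 7 to 9, with no steady order between. The share inside coding sequences was 8.58% for runs of 1 tile, between 2.998% and 4.10% for runs of 2 to 6 tiles, 3.57% for 7 to 9 tiles and 3 of 30 for 10 or more, without an order by width.

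The distance to a start codon, which marks the gene a promoter serves, was short for most stretches. A start codon lay inside 21 stretches, and 220 of 309 (71.2%) were within 300 bp of one, with a median distance of 181 bp. Of all runs of 5 adjacent usable tiles, 39.8% were within 300 bp, and of those wholly outside coding sequences 53.2%. These runs are all 250 bp wide, so wider stretches can be nearer to a start codon by their size alone. Runs wholly outside coding sequences can also hold no start codon, unlike the stretches. Wholly outside coding sequences were 255 stretches (82.5%), against 11959 of the 88026 runs of 5 usable tiles. Of the 54 that touched one, 31 touched only open reading frames annotated as uncharacterized proteins. The median distance to the start codon of a characterized gene was 231 bp, and it was 354.5 bp for the 30 stretches of 10 or more tiles.

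Of the 15 widest stretches, 14 lay before genes of several kinds and 1, that of 700 bp in *SHR5*, inside a coding sequence, described with the other coding ones. Those of equal width were ordered by the level in the lower library. The widest, 950 bp (chrXI:355201-356150), had 35.3% of 2883 reads methylated with CCMT (33.5% to 37.1%) and 39.6% of 1899 reads with GCMT (37.4% to 41.8%). It ended 172 bp before *MMO1*, a gene whose product is annotated to mitochondria, and 598 bp before *PHD1*, which encodes an activator of pseudohyphal growth that interacts with Tup1-Cyc8. Its 19 tiles were between 22.1% and 51.1% with CCMT and between 29.6% and 54.5% with GCMT. The space between *SOK2*, a regulator of pseudohyphal differentiation, and *SPO20*, a sporulation gene, held 850 bp (chrXIII:306101-306950) with 34.7% and 33.7%. The start codons of these genes were 508 and 539 bp away. The stretch between *CMC4* and *ICY1* was also 850 bp (chrXIII:653001-653850), with 32.8% and 35.0%. Another of 850 bp lay 331 bp before the hexose transporter gene *HXT6* (chrIV:1161651-1162500), with 32.3% and 35.6%, and contains the start codon of the uncharacterized frame YDR344C.

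Below these came stretches of 600 to 800 bp. The peptide transporter gene *PTR2* had 800 bp (chrXI:614651-615450) from 280 bp before its start codon, with 33.8% and 36.9%. Between *GID8*, a subunit of the complex that degrades gluconeogenic enzymes, and *GAT2*, a GATA-type zinc finger protein, 750 bp (chrXIII:540201-540950) had 36.7% and 36.8%. Another 750 bp (chrXIII:510501-511250) between the ribosomal protein gene *RPL15B* and *NCW1* had 31.2% and 33.3% and was overlapped by the uncharacterized frame YMR122C. *HAP4*, the activating subunit of the CCAAT-binding complex and a regulator of respiration, had 700 bp (chrXI:231101-231800), 427 bp from its start codon, with 34.4% and 35.3%. A further stretch of 300 bp lay 200 bp upstream of that one. *FMP48* had 700 bp with 30.7% and 32.6% (chrVII:592451-593150), the lowest levels among the 15.

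The last 5 of the 15, among 8 stretches of 600 bp, all lay more than 300 bp from a characterized start codon. That before *YAP6*, a bZIP transcription factor gene, had 35.9% and 38.5% at a GC content of only 35.8%, and was 319 bp away (chrIV:976101-976700). That before *GLN1*, the glutamine synthetase gene, had 34.7% and 42.2%, the highest GCMT level among the 15, and was 408 bp away (chrXVI:641201-641800). The stretch before *MGA1*, a gene related to heat shock factors, had 34.01% and 33.97% at 649 bp (chrVII:986801-987400). That before the polyamine transporter gene *TPO2* had 31.5% and 37.3% at 545 bp (chrVII:766151-766750). The stretch 376 bp before *HMS1*, a helix-loop-helix protein gene, had 31.2% and 38.7% (chrXV:391451-392050). In all 15 the lowest tile was at or above 20.5% with CCMT and 20.7% with GCMT, and the GCMT interval lay above that of CCMT without overlap at *MMO1*, *GLN1*, *TPO2* and *HMS1*.

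**Figure D3:**
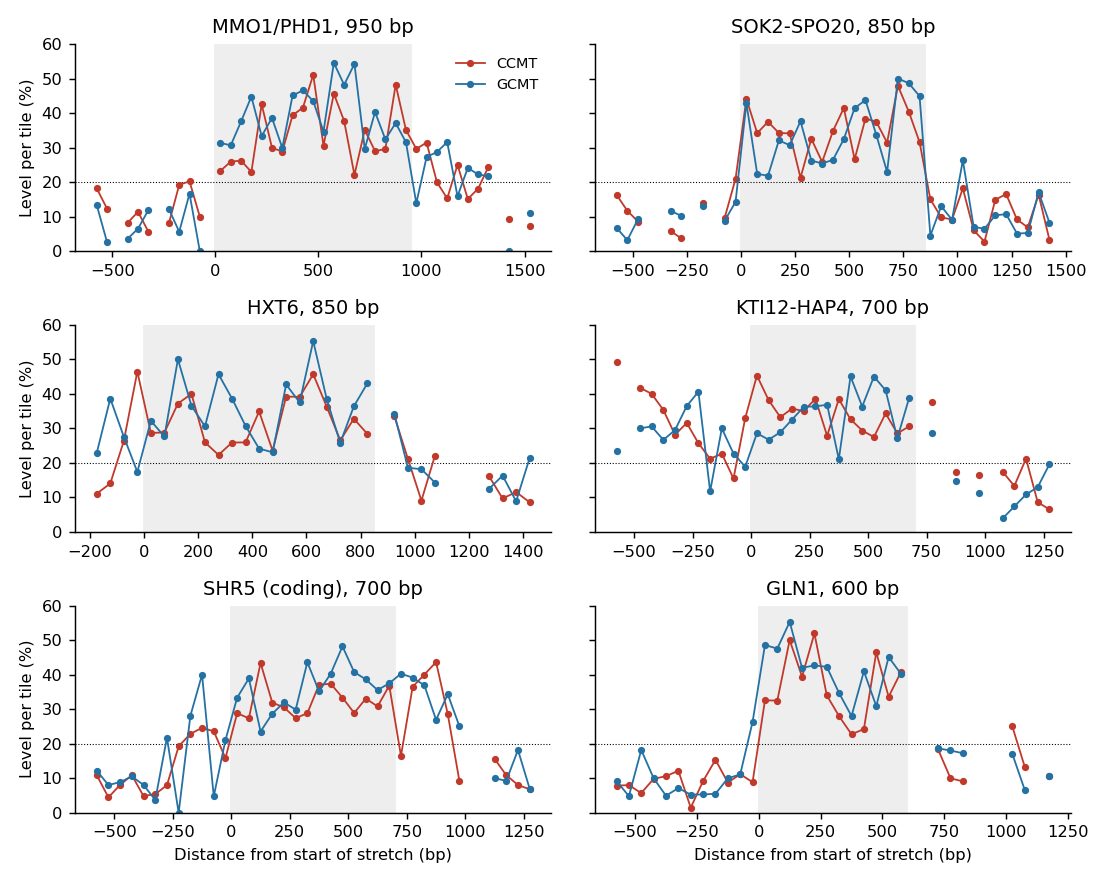
Methylation level of the usable 50-bp tiles (y axis, %) against the distance from the start of the stretch (x axis, bp) for 6 of the 15 widest stretches, with CCMT in red, GCMT in blue, the stretch in grey and a dotted line at 20%. Inside the 950-bp stretch before *MMO1* the tiles lie between 22.1% and 54.5%.

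The 5 stretches with the highest level in the lower library were 250 to 350 bp wide. At *CHC1* and *POX1*, genes for the clathrin heavy chain and the first enzyme of fatty acid oxidation, 250 bp (chrVII:107651-107900) had 40.3% (36.3% to 44.3%) and 42.5% (35.9% to 49.2%). At *PSP2*, 250 bp (chrXIII:236201-236450) had 39.4% and 42.9%. These pieces had GC contents of 32.0% and 31.2%, the latter the lowest of all 309. The *HXT3* stretch of 350 bp (chrIV:1164901-1165250), 241 bp before the gene for a low-affinity glucose transporter, had 42.4% (39.7% to 45.2%) and 39.2% (34.8% to 43.7%). Between *PDR1*, the main regulator of multidrug resistance, and *ERG4*, the last enzyme of ergosterol synthesis, 300 bp (chrVII:472451-472750) had 38.2% and 40.3%. The fifth lay over the small frame *BRP1*, 585 bp upstream of *PMA1*, the plasma membrane proton pump gene, with 38.9% and 38.1% (chrVII:483251-483550). The intervals of the libraries overlapped in all 5.

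Of the 6002 nuclear protein-coding genes, 263 (4.38%) had a stretch in the 300 bp before the start codon, and of the 5359 characterized genes with a space upstream, 388 (7.24%) had a stretch centred in it. For cytosolic ribosomal protein genes the shares were 37 of 138 (26.8%) by the 300-bp measure and 42 of 138 (30.4%) by the space. Their stretches were short, with a median of 250 bp, and their levels with CCMT were between 25.6% and 37.9%. By the 300-bp measure, the 4 widest were the 750 bp at *RPL15B*, 450 bp between *ATG27* and *RPL17B* (31.4% and 41.3%), 400 bp before *RPS4B* (31.5% and 36.1%) and 350 bp before *RPS27B* (35.2% and 39.3%), the latter tied in width with *RPS19B*, *RPL17A*, *RPS4A* and *RPL19B*. By the space, *RPS8B* also had 450 bp (33.4% and 38.9%). Histone genes had 4 of 11, all from 2 shared divergent promoters, since 300 bp between *HHT2* and *HHF2* had 27.8% and 35.0% and 250 bp between *HTA2* and *HTB2* had 34.1% and 44.5%. Such shared promoters count once as a stretch and as 2 genes.

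Beside the 4.38% of all genes, glycolysis had 3 of 19 (15.8%). These were *HXK1*, the hexokinase gene (450 bp, 38.0% and 37.0%), *FBA1*, the aldolase gene (350 bp, 36.1% and 36.4%), and *TDH1*, a glyceraldehyde-3-phosphate dehydrogenase gene (350 bp, 32.1% and 43.0%). Amino acid biosynthesis had 5 of 75 (6.67%), near the share of all genes. The widest was 400 bp before *LYS20*, a homocitrate synthase gene, with 37.1% and 32.9%, followed by 300 bp before *ASN1* (34.4% and 34.3%) and *ADE3* (27.6% and 34.1%) and 250 bp before *MET6* (32.4% and 41.1%). Hexose transporters had 3 of 18 (16.7%), with 400 bp before *HXT2* (33.7% and 34.4%), the *HXT3* stretch, and 300 bp before *HXT4* (35.4% and 38.1%). The stretches of *HXT1*, *HXT6* and *HXT7* were farther upstream. Cell wall proteins had 5 of 24 (20.8%), among them *CWP1* (400 bp, 36.5% and 35.0%), *CWP2* (400 bp, 31.9% and 38.3%), *TIR1* (300 bp, 35.2% and 43.9%) and *CIS3* (250 bp, 31.1% and 31.9%).

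In the other lists the counts by the 300-bp measure were small, and at 4.38% of all genes lists of this size hold few genes with a stretch, so nothing is read from them. No stretch lay there for 33 proteasome genes, 6 general regulatory factor genes or the 7 genes of the galactose regulon. Heat shock proteins had 1 of 21, at *HSP30* (250 bp, 26.2% and 40.04%), and the cyclins with *HO* 1 of 13, at *PCL1* (300 bp, 28.3% and 32.3%). Of 29 heme-, stress- and growth-related transcription factor genes, *XBP1*, *MIG1* and *YAP1* had one, and the 300 bp before *YAP1*, the oxidative stress regulator, had 40.8% and 34.2%. By the wider measure of the whole space, which held for 7.24% of all genes, the counts were 4 of 13 for the cyclins with *HO*, 1 of 6 for general regulatory factors, 2 of 33 for the proteasome, 1 of 21 for heat shock proteins, 5 of 19 for glycolysis, 5 of 75 for amino acid biosynthesis, 5 of 18 for hexose transporters, 5 of 11 for histones and 10 of 24 for cell wall proteins, and none for the galactose regulon. Of the 29 transcription factor genes, 10 had a stretch by this measure (34.5%), adding *MSN4*, *HAP1*, *HAP4*, *ROX1*, *ADR1*, *GCN4* and *TEC1*. Except for the proteasome (389 bp), these lists have wider spaces than all genes (median, 488 bp). The medians were 1551 bp for cell wall proteins, 1470 bp for hexose transporters and 993 bp for these transcription factors. Within spaces over 1000 bp, the counts of these lists were 8 of 18, 5 of 11 and 8 of 14. For amino acid biosynthesis the count was 3 of 16, and for all genes 202 of 1059 (19.1%). These differences were not tested.

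Transcription factor genes and transporter genes were then counted over the whole annotation, as classes drawn after the values had been seen. Of 200 genes annotated as transcription factors or transcriptional regulators, 12 (6%) had a stretch in the 300 bp before the start codon, but 36 of 198 (18.2%) had one in the space, against 7.24% of all. Of 103 genes for plasma membrane transporters, 15 (14.6%) and 26 (25.2%) did. Because these genes have wider spaces, with medians of 668.5 and 977 bp against 488 bp, they were compared within classes of space width. Among spaces over 1000 bp, 25 of 59 transcription factor genes (42.4%), 15 of 50 transporter genes (30.0%), 12 of 37 ribosomal protein genes (32.4%) and 202 of 1059 genes in all (19.1%) had a stretch. Among spaces over 600 and up to 1000 bp the counts were 6 of 52 (11.5%), 10 of 27 (37.0%), 21 of 54 (38.9%) and 129 of 1076 (11.99%). Up to 600 bp they were 5 of 87 (5.75%), 1 of 26 (3.85%), 9 of 47 (19.1%) and 57 of 3224 (1.77%). The share of transcription factor genes was thus above that of all genes in the widest and the narrowest class but not between them, and that of ribosomal protein genes was above it in each class. None of these differences was tested. A stretch in a divergent space counts for the genes on both sides, such as *GCN4* and *MIT1*. These genes can be of different classes, such as *RPS4A* and *HMS2*, so the counts of genes are not counts of stretches. The keyword class misses some regulators, such as *SOK2*, *HMS1* and *GAT2*.

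**Figure D4:**
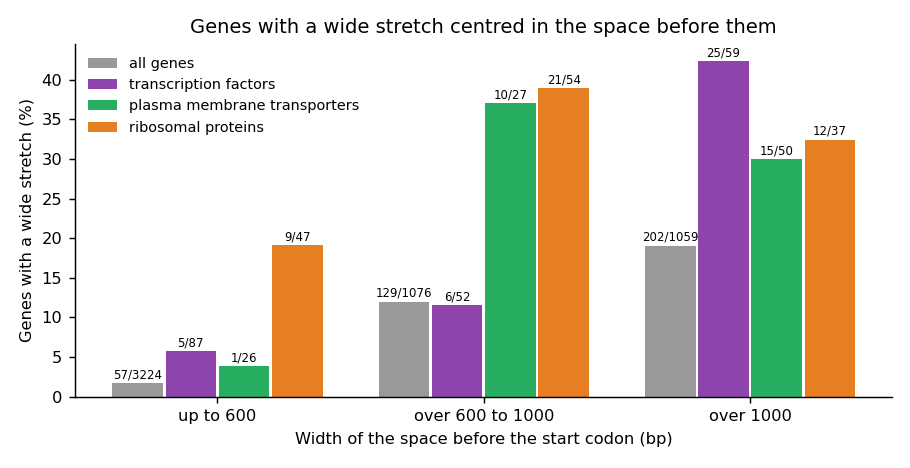
Share of genes with a stretch centred in the space before the start codon (y axis, %) by the width of that space (x axis, bp), with the number of genes with a stretch over all genes above each bar. In spaces over 1000 bp the share is 42.4% for transcription factor genes and 19.1% for all genes.

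The permeases among these serve many substrates. Amino acid permease genes of the class with a stretch in their space were *BAP2*, *TAT1*, *TAT2*, *CAN1*, *MUP1*, *AGP1* and *DIP5*, the polyamine transporter genes were *TPO1*, *TPO2*, *TPO3* and *TPO4*, and the hexose transporter genes were *HXT1*, *HXT2*, *HXT3*, *HXT6* and *HXT7*. The keyword class misses other permease genes with a stretch beside them, such as *GNP1* (500 bp, 38.3% and 37.04%), *BAP3* (450 and 250 bp) and *LYP1* (250 bp). The *HXT4* stretch was not among these, since it lies over the small frame *AHT1*, 290 bp before *HXT4*, and its centre was counted as inside a coding sequence.

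Stretches inside coding sequences were rare. The centre of 14 lay in a coding span, 7 had no base outside coding sequences, and 34 were more than 50% coding, uncharacterized frames included. Those in *PUT4* and *FMT1* are named here after their values were seen. In *SHR5*, which encodes a subunit of the Ras palmitoyltransferase, 700 bp (chrXV:109201-109900) ran from base 26 of the 714-bp coding sequence past its end, with 32.1% (30.6% to 33.7%) and 35.8% (33.3% to 38.4%). It covered nearly the whole gene and lay 397 bp before *ZEO1*, a gene that also follows it on the top strand. Its GC content was 55.3%. *PUT4*, the proline permease gene, held a pair, 600 bp (chrXV:987301-987900) with 28.6% and 33.4% and 350 bp (chrXV:988101-988450) with 31.4% and 30.4%. The rest of its 1884-bp coding sequence had 17.9% and 24.8%. *FMT1*, which encodes the mitochondrial methionyl-tRNA formyltransferase, held 250 bp with 28.5% and 30.0%, while the rest of its coding sequence had 9.83% and 13.6%.

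Others, also named after their values were seen, lay at the ends of coding sequences. At *TRM5*, *PAC11*, *BIK1*, *ALF1* and *PHO4* the stretch covered the end of the coding sequence and lay within 404 bp of the next start codon, which belongs to *PCL5*, *RIB3*, *HIS4*, *PGA2* and *QCR6*, respectively. The one at *MPT5* lay in the part of its span that is not coding, with 36.0% and 34.6%. At *RSF2* it covered the start of the coding sequence, where the uncharacterized frame YJR128W overlaps on the other strand.

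Few stretches overlapped tRNA genes or replication origins. A tRNA gene was overlapped by 5 stretches (1.62%), which held 6 of the 275 tRNA genes. Among all runs of 5 usable tiles the share was 0.571%, and among those wholly outside coding sequences 3.69%. These runs, used for origins too, are all 250 bp wide, so wider stretches had more room for an overlap. Of the runs of 1 to 4 tiles, 230 of 5075 (4.53%) overlapped a tRNA gene, and none of the 84 stretches of 7 to 9 tiles or the 30 of 10 or more did. The stretch of 300 bp before *NMA1*, an NAD synthesis gene (chrXII:784401-784700), had 30.95% and 37.8%. That before *POR1*, the mitochondrial porin gene, had 35.3% and 36.1% (chrXIV:518901-519150). The one between *YDR034C-D* and *CPP3* had 31.3% and 33.2% (chrIV:519701-519950), and the one near *AVT7*, in a convergent space and 1553 bp from a start codon, had 27.99% and 36.01% (chrIX:197601-197850). All 4 were thus within the range of the other stretches. The stretch at *TGL2*, printed above with its tRNA genes in capitals, had 30.4% and 36.0%, and 55.7% of its 75-base words occur more than once in the genome, so its reads may come partly from other copies. In one other stretch 7.39% of the words were repeated, and in the others none was. An origin was overlapped by 2 stretches (0.647%, against 0.885% of all runs and 3.04% of those outside coding sequences). These were ARS519 in 500 bp of chromosome V (442001 to 442500; 29.7% and 30.0%), where 56.0% of the bases were G or C, and the putative ARS1317 in 300 bp before *PGM2* (34.4% and 33.3%). No stretch overlapped a small nucleolar RNA gene or a long terminal repeat, of which the annotation has 76 and 384.

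The base composition of the stretches differed from that of other noncoding DNA. Their median GC content was 45.7%, against 38.8% for runs of 5 usable tiles outside coding sequences and 40% for all such runs. A tile is usable only with enough CC and GC cytosines, so AT-rich DNA is less often measured at all. This limit applies to the stretches and to the compared runs alike, since both consist of usable tiles. The cause of the difference in composition was not tested. Because of that difference, motif letters were compared within classes of GC content. The comparison used the central 250 bp of each stretch and the 10460 noncoding runs of the same length that touch no stretch, on both strands.

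Runs of 8 adenines or thymines were present in 29.8% of the stretches, 23.1% of these noncoding runs and 8.13% of all runs of 250 bp. Among pieces under 40% GC, 24 of 41 stretches (58.5%) and 26.9% of noncoding runs had one, and from 40% to 45% 41.6% and 17.7%. The share was above that of the noncoding runs in each of the 4 classes. TATAAA, the core of the TATA box, was in 13.9% of the stretches, 30.3% of the noncoding runs and 20.3% of all runs. By class, from low to high GC, it was in 31.7%, 12.99%, 14.9% and 5.56% of the stretches and in 35.8%, 22.8%, 13.9% and 11.7% of the noncoding runs.

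The letters bound by general regulatory factors, those bound by Rgt1 and those of the stress response element had these shares. The Reb1 core TTACCCG was in 9.39% of the stretches, 4.39% of the noncoding runs and 1.48% of all runs, and was above the noncoding runs in each GC class. The Abf1 consensus was in 12.9%, 7.30% and 3.42%, with 22.2% against 10.7% in the class over 50% GC but 7.92% against 10.4% from 45% to 50%. The Rap1 core ACCCANACA was in 2.91%, 1.47% and 0.709%, that is, in 9 stretches. The 7 letters CGGANNA were in 51.8%, 26.6% and 24.4% and above the noncoding runs in each GC class, for example 48.1% against 29.8% from 40% to 45% GC. AGGGG was in 39.5%, 20.7% and 17.1%, with 17.1% against 16.5% under 40% GC and 44.6% against 32.7% from 45% to 50%. Other scanned letters went either way, with CCAAT in 32.4% of the stretches and 39.5% of the noncoding runs, and GCGGGG in 14.6% and 4.41%. By class, from low to high GC, GCGGGG was in 7.32%, 16.9%, 14.9% and 15.6% of the stretches. In the noncoding runs it was in 2.21%, 6.53%, 12.1% and 20.4%, so the order was reversed over 50% GC. Such matches are descriptions of the letters and do not show binding.

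The cytosines inside the matches were then compared with the level that their trinucleotide context had in all stretches. At 58 Abf1 matches in 45 stretches, the level was 19.7% with CCMT (17.6% to 22.05%; 39 cytosines) where the context gave 32.0%, and 27.1% with GCMT (24.6% to 29.6%; 86 cytosines) where it gave 36.1%. The ratios were 0.617 and 0.750, whereas the same letters in coding sequences outside the stretches had ratios of 1.24 and 1.39, those in noncoding DNA outside the stretches 0.975 and 1.05, and the flanks from 10 to 60 bp of the matches in the stretches had 1.02 and 0.983. A match at *ADE3* had 13.6% of 44 reads with CCMT and 21.7% of 23 reads with GCMT, and the overlapping pair in *SHR5* 21.4% and 27.3%. Both examples lie in coding sequences, the former in the end of *YCH1*. Ratios like that of Abf1 with GCMT were also found for GCGGGG (0.765) and CATTCC (0.752). At 13 Rap1 matches the CCMT level was 28.8% against 33.9% from context, a ratio of 0.850 beside 0.851 in noncoding DNA outside the stretches, and the pair before *RPS11B* had 18.8% and 18.1%. Reb1 matches had a ratio of 1.08 with CCMT and 0.904 with GCMT. Outside the stretches, the Reb1 letters had ratios of 1.91 and 1.34 in noncoding DNA and of 1.31 and 0.918 in coding sequences. The CCMT cytosine inside CGGANNA matches had 40.03%, above the 35.0% from context, and the GCMT cytosines 28.5% against 37.2%. In coding sequences these letters had ratios of 1.17 and 0.682, on the same sides of 1 as in the stretches (1.15 and 0.766). At *HXT3*, the CCMT cytosines of the 7 matches were between 48.3% and 61.8%, above the 42.4% of the stretch, while the GCMT cytosines of 2 of them had 25% of 24 reads and 14.3% of 14 reads, below its 39.2%. These CCMT values rest on 1 cytosine per match with 27 to 35 reads and were not set against context. In noncoding DNA outside the stretches, CGGANNA had ratios of 1.32 with CCMT and 0.915 with GCMT.

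**Figure D5:**
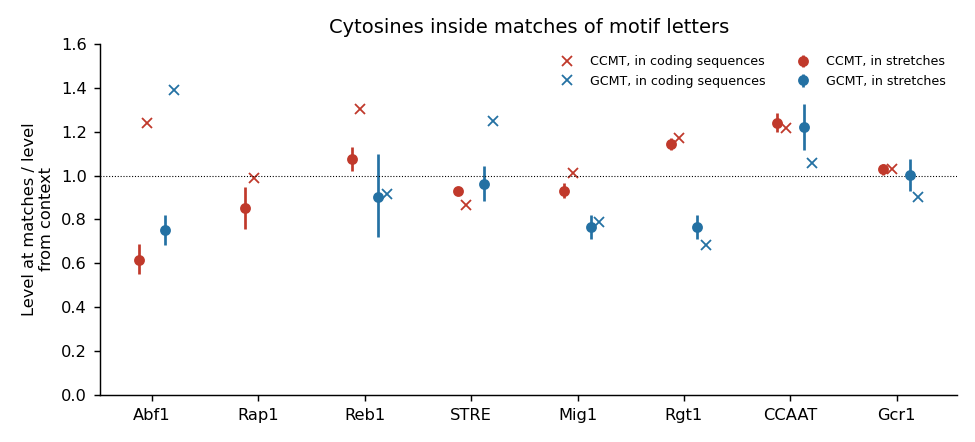
Level of the target cytosines inside motif matches divided by the level expected from their trinucleotide context (y axis, a ratio), for matches in the stretches (points, with 95% binomial intervals of the counts) and for the same letters in coding sequences outside them (crosses), with CCMT in red and GCMT in blue. The Abf1 points lie at 0.617 and 0.750, and their crosses at 1.24 and 1.39.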

How the data were processed

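NOMe-Seq libraries of nuclei treated with CCMT or GCMT were compared, 1 per enzyme, with groups taken from the sample labels. The study's table of yeast libraries gives another accession for CCMT than the library used here, and whether both hold the same reads is not given in the sources used here. The authors mapped the bisulfite reads to sacCer3 with BMap and in-house pipelines, according to the submitters' notes and the methods, with versions, filters and the treatment of duplicates not given in the sources used here. For each cytosine, the authors deposited a read count, with a minimum of 5 in the files, and the methylation level as a fraction of those reads. Their product was a whole number, which gave the methylated reads. Summed over cytosines, with a read counted at each cytosine it covers, the totals were 28485123 reads over CC and 10967078 over GC cytosines.

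Tiles of 50 bp with at least 10 reads per library were scored, and runs of 5 or more at 20% or more were kept. Annotation and sequence were from the R64 RefSeq reference. Python 3.11.15, numpy 2.4.6, pandas 2.3.3 and scipy 1.17.1 were used, with exact binomial intervals (Clopper-Pearson, 95%) that cover counting error only. These intervals treat the counts at neighbouring cytosines as independent. The procedure was run on simulated libraries with a flat background and planted stretches in well-covered tiles. This does not test members near the limits of the rule. Stretches were named when they were among the 15 widest, the 5 with the highest level in the lower library, the 5 widest at tRNA genes, at origins or without a start codon within 300 bp, or the 4 widest of a gene list. Other stretches in the text (such as those at *CLB2*, *CUP9*, *RPS11B*, *PUT4* and other coding sequences, and further permease and ribosomal protein genes) were named after their values were seen. The members and lists were chosen with earlier results of these data known. The keyword classes of genes, the motifs and the printed sequences were chosen after the values were seen. The alternatives were another tile phase, read minimum, level, run length, averaging, treatment of unusable tiles, no GCC cytosines and thinned CCMT reads.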

Additional observations from a re-analysis of the deposited data

How the results depend on the processing

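Of 70 values recomputed under 10 alternatives, 12 moved beyond the limit set for them (1.5 times for counts, the 95% binomial interval for shares) and 58 did not. That interval is wide for the few stretches at tRNA genes and origins. The limit was the distance between the quartiles for the median width, and 1 percentage point for the median share outside coding sequences. These medians had little room to move. The share stayed at 100%, and widths of 250 bp with at least 4 tiles and 350 bp with at least 6 counted as not moved. The 309 stretches became 558 at a level of 15%, 134 at 25%, 555 with runs of at least 4 tiles and 191 with at least 6. The 263 genes with a stretch in the 300 bp before the start codon became 501, 109, 457 and 161, respectively. The share at tRNA genes (1.62%) became 3.943% at a level of 15%, 0% at 25% and 0.5236% with at least 6 tiles, and, within the interval, 3.243% with at least 4 tiles, 2.646% when a single unusable tile did not end a run and 2.632% with thinned reads. The share at origins (0.647%) was between 0.647% and 1.434%, and the share within 300 bp of a start codon (71.2%) became 65.67% at 25%. The counts follow from looser or stricter selection, and the cause of the moves in the shares was not tested. With tiles that start 25 bp later the number was 305, but only 211 of the 309 stretches (68.3%) were overlapped, and the share was 76.4% without GCC cytosines and 76.1% with CCMT reads thinned to the GCMT depth. With 1 library per enzyme, no value has a biological error. No paired analysis was possible because each enzyme had 1 library.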
